A study of Mus musculus with 6 samples.

Results

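The genes described here are 54 genes of DNA replication and S phase, taken by symbol from a table of 16281 mouse genes. They comprise 12 genes of origin licensing, 8 of origin firing and helicase activation, 9 of the DNA polymerases and primase, 6 of the sliding clamp and its loader, 5 of single-strand binding and lagging-strand processing, 4 of deoxynucleotide supply, 7 encoding cyclin E and E2F factors, and 3 of histone supply and chromatin assembly. The genes were listed by function, with no threshold on a measured value, and all 54 passed the filter on low counts that left 11698 genes for testing. Of the 54, 26 carried the pathway annotation DNA replication in the deposited table and 19 carried Cell cycle.

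RNA-seq was performed on CD8+ T cells from spleens of OT1 mice, which carry the transgene Tg(TcraTcrb)1100Mjb for a T cell receptor against an ovalbumin peptide on a C57BL/6 background. Both groups were stimulated for 48 h with plate-bound anti-CD3, soluble anti-CD28 and IL-2 and were then kept for 3 days in IL-2, so that all cells were harvested on day 5. The 3 GSK samples received 0.5 μM GSK2879552, an irreversible inhibitor of the histone demethylase LSD1, throughout, and the 3 Veh samples received the vehicle. The labels number the samples 1 to 3 in each group. The study names 3 separate OT1 mice as the source of the cells and gives n = 3 mice for each group. The age of the mice is not given in the sources used here, and whether a GSK and a Veh culture with the same number share a mouse is not stated. The comparison asks how LSD1 inhibition throughout stimulation and the days in IL-2 altered the transcripts of this machinery.

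Before a cell enters S phase, the origin recognition complex (ORC), CDC6 and CDT1 load the MCM2-7 helicase onto DNA, a step called licensing. The kinase CDC7 with DBF4, together with MCM10, CDC45 and the GINS complex, then turns the helicase on, and the polymerases copy the strands with the clamp PCNA while RPA coats the exposed single strand. Many of these genes are transcribed together in late G1 and S phase under E2F factors, and T cells express them strongly after activation, when they divide fast.

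Promoter sequences are shown first for 6 of the genes, because the E2F factors are members themselves and recognise a short word near the start of many replication genes. The words searched were TTTCCCGC, TTTCGCGC, TTTGCCGC and TTTGGCGC on either strand, in a window from 250 bases before to 50 bases after the start of each RefSeq transcript (GRCm38.p6). Capitals mark the matched words. The windows of E2f3, E2f2, Mcm3 and Mcm6 hold at least 1 word, whereas those of Mcm2 and Orc2, the members with the largest changes among the MCM and ORC genes, hold none.
E2f3 (chr13:29986014-29986313, - strand): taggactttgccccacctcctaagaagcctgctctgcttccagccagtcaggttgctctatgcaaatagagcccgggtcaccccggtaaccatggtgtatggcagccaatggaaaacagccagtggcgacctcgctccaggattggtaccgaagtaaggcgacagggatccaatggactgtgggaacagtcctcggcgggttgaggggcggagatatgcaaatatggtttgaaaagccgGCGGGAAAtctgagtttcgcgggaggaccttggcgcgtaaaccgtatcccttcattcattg
E2f2 (chr4:136172024-136172323, + strand): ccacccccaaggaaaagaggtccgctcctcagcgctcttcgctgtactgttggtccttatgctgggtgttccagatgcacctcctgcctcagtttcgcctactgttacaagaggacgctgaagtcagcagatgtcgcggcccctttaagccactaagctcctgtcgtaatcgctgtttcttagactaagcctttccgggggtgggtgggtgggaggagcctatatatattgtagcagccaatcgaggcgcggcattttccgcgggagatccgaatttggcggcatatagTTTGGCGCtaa
Mcm3 (chr1:20820263-20820562, - strand): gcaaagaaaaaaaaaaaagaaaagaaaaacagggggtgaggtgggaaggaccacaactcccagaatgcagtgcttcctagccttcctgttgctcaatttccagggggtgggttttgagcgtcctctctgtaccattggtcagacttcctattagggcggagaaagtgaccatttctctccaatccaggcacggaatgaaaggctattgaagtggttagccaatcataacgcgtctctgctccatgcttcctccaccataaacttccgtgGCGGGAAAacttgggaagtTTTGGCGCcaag
Mcm6 (chr1:128359656-128359955, - strand): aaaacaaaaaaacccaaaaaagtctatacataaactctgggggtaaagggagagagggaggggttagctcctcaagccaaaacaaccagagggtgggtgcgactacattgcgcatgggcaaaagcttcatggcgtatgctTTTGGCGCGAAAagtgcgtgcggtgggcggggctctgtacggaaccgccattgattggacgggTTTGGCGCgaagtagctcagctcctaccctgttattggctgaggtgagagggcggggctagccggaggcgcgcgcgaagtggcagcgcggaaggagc
Mcm2 (chr6:88898731-88899030, - strand): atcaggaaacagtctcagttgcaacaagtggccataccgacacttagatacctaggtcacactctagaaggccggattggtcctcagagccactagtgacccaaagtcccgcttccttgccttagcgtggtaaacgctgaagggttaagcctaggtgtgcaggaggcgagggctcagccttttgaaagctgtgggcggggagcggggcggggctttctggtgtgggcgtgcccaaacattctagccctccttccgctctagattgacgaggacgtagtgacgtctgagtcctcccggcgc
Orc2 (chr1:58505060-58505359, - strand): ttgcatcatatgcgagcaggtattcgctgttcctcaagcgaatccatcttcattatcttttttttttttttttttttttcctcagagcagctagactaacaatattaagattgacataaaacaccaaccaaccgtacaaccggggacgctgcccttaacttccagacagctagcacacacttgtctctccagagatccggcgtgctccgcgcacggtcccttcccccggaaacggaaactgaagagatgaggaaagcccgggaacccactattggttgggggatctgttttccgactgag

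In E2f3 the word GCGGGAAA begins 11 bases before the start, and in E2f2 the word TTTGGCGC begins 39 bases after it. Mcm3 has GCGGGAAA and TTTGGCGC at 19 and 38 bases after the start. Mcm6 has 3 words, TTTGGCGC at 110 and again at 47 bases before the start and GCGCGAAA at 106 before it. The words at 110 and 106 overlap. A gene was counted when any of its windows held a word. Of the 45 members with a promoter entry, 17 held one, or 37.8% (95% exact binomial interval 23.8 to 53.5%), against 4.9% of 9422 tested genes and 2.6% of 27025 genes with an entry. Within the 250 bases before the start alone the shares were 22.2%, 4.11% and 2.16%. A match describes the letters and does not show binding. Gmnn, Mcm4, Gins1, Gins2, Gins4, Prim2, Pole, Rfc2 and Ccne2 had no entry.

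The samples held 18288447 to 19846720 counts each, and the lowest count of any member in any of them was 396. Levels are given as CPM, the counts scaled to a common library size, after TMM scaling. The summed CPM of 9 CD8 T cell markers ranged from 3420 to 3570 in Veh and from 3330 to 3530 in GSK, and the 7 B cell markers summed to 6.31 to 8.21 and 7.93 to 9.67 CPM, respectively. The 6 myeloid markers measured summed to 2.79 to 4.73 and 1.3 to 2.73 CPM, the 3 NK cell markers to 9.56 to 10.7 and 12.8 to 17 CPM, the 3 CD4 T cell markers to 43.1 to 52.9 and 39.2 to 44.8 CPM, and the 4 erythroid markers stayed below 0.5 CPM. The NK cell sums, higher in GSK, and the myeloid sums, lower in GSK, did not overlap between groups. Single markers also moved: Cd22 rose 6.27-fold from 0.409 to 2.60 CPM (adjusted p = 0.000151) and Klre1 1.42-fold from 8.04 to 11.4 CPM (adjusted p = 0.0093), and of the CD8 T cell markers Lck and Cd2 rose while Cd3d, Cd3e, Cd3g and Cd5 fell. The part of these differences in the results below was not tested. The inhibitor acts on the LSD1 protein, so the RNA of its gene Kdm1a, at 89.1 to 99.1 CPM in Veh and 84 to 90.9 CPM in GSK (adjusted p = 0.22), is no check of the treatment.

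A minority of the replication genes rose modestly in GSK-treated cells, 1 fell, and no member reached a 1.5-fold change. In the quasi-likelihood test of edgeR, at a threshold of 0.05 for p-values adjusted over all tested genes, 11 members rose, namely Orc2, Mcm2, Mcm3, Mcm10, Cdc45, Pold2, Rfc5, Rpa2, Fen1, Rrm2 and E2f3. E2f2 was the single member that fell, and 42 did not pass. The 11 make up 20.4% of the members, where 16.6% of all tested genes rose, and the 1 that fell makes up 1.85%, where 15.5% of all tested genes fell. At an adjusted p under 0.05 with a change over 1.5-fold, 0 members were called by edgeR and 0 by DESeq2, whereas 6.32% of all tested genes were called by edgeR. At an unadjusted p under 0.05, 23 of the 54 members passed, where 5026 of the 11698 tested genes did.

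The share that rose was close to that of all tested genes, and the share above 0 was larger. The fitted log2 fold change was above 0 in 43 of the 54 members (79.6%) against 49.3% of all tested genes, and its median was 0.12 against -0.0039. Every GSK sample lay above every Veh sample for 20 of the 54 members, a state shared by 2772 of the 11698 tested genes (23.7%). Every GSK sample lay below for 5 of the 54 members, against 2692 of the 11698 tested genes (23.0%), and the groups overlapped for 29 members. Fold changes ran from 0.896 for E2f2 to 1.31 for Orc2. All 54 of the 95% intervals lay within 1.5-fold in either direction and 42 of them within 1.25-fold. In bulk RNA a larger share of cells in S phase and more RNA per cell cannot be told apart. The p-values set the difference between groups against the spread among these samples, which was estimated with information shared across genes.

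**Figure D1:**
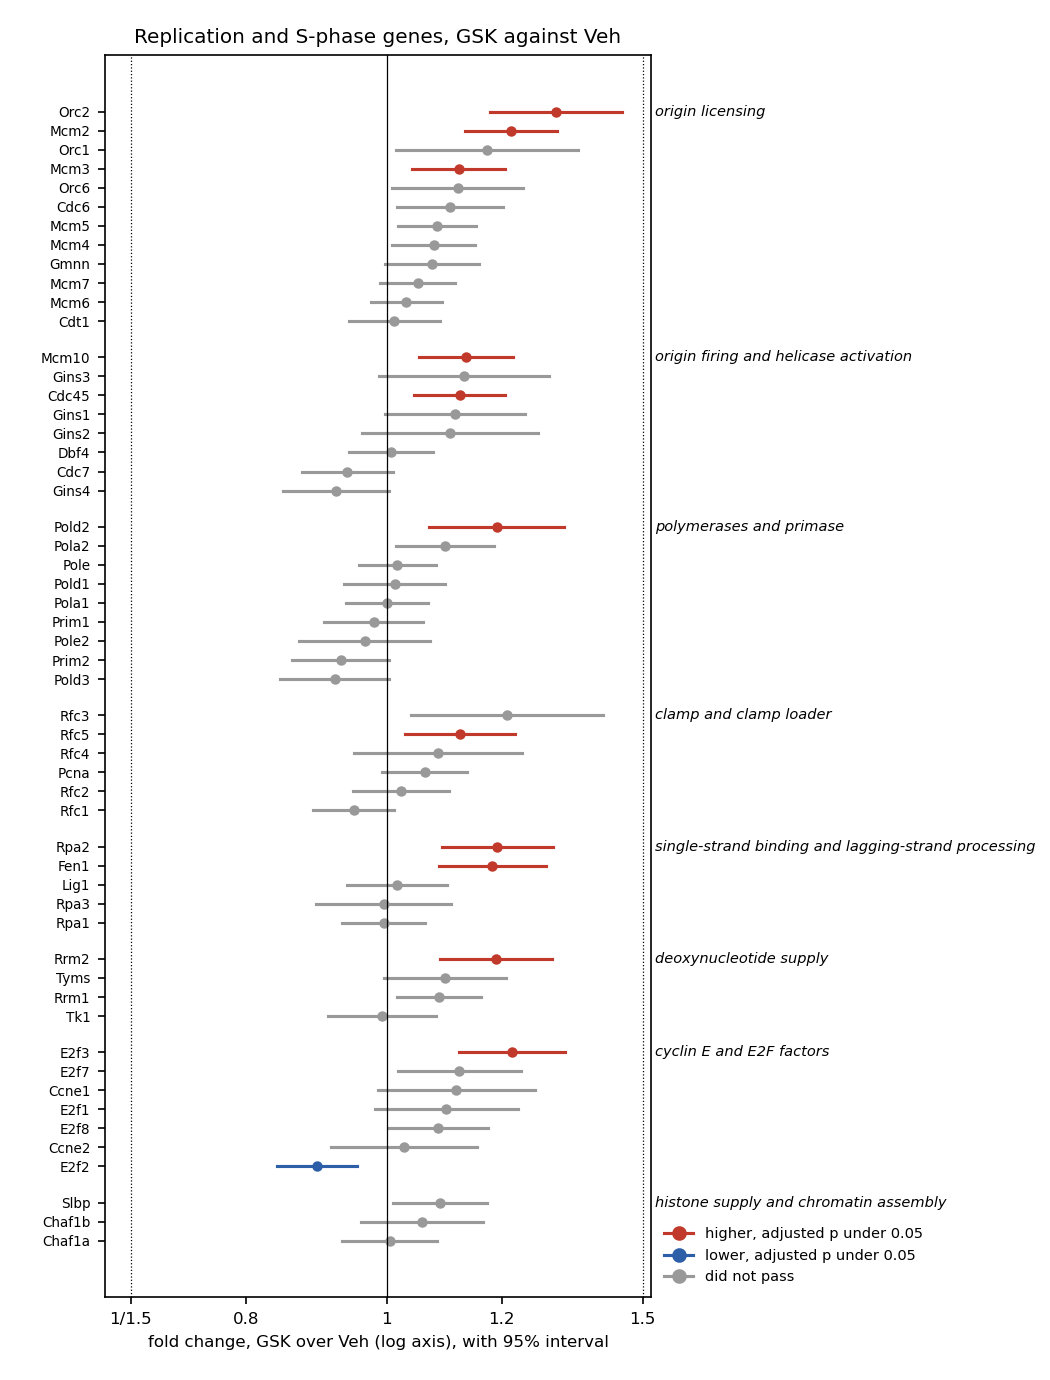
Fold change of each of the 54 genes in GSK over Veh samples (n = 3 per group) on a log axis, as points with the 95% interval as bars, grouped by role. The 11 genes that rose are red, E2f2 is blue, the others are grey, the dotted lines mark 1.5-fold, and every bar lies between them.

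Of the 12 origin licensing genes, 3 rose (25%), where 16.6% of all tested genes rose. All 12 had a fitted change above 0, against 49.3% of all tested genes, with a median log2 fold change of 0.13. Orc2, a subunit of the origin recognition complex on chromosome 1 (58462771 to 58505113), had 61.1, 63.8 and 62.9 CPM in the Veh samples and 85.3, 72.2 and 88.2 CPM in the GSK samples. The GSK samples all lay above the Veh samples, with GSK replicate 2 nearest to them. This 1.31-fold rise was the largest of any member (95% interval 1.18 to 1.45, log2 fold change 0.39 ± 0.069 SE, adjusted p = 0.0013). The exons of Orc2 share 25.1% of their 75-base stretches with Nif3l1 on the opposite strand, and the strand setting of the counting is not given in the sources used here. Nif3l1 itself had mean levels of 18 and 20.7 CPM (adjusted p = 0.12). Orc1, the largest ORC subunit, gave a fold of 1.17 (adjusted p = 0.087), and Orc6 a fold of 1.12 (adjusted p = 0.091).

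Among the 6 MCM helicase genes, Mcm2 and Mcm3 rose, where 16.6% of all tested genes did. Mcm2 (chromosome 6, 88883474 to 88898780) measured 271.7, 286.5 and 280.9 CPM in Veh against 341.0, 318.7 and 362.5 CPM in GSK. All 3 GSK values exceeded the Veh range, at 1.22-fold (log2 fold change 0.28 ± 0.049 SE, adjusted p = 0.000896). For Mcm3 (chromosome 1, 20802966 to 20820312), the Veh samples had 376.9, 402.8 and 393.7 CPM and the GSK samples 445.1, 406.6 and 463.1 CPM. The groups were apart by a narrow margin, between Veh replicate 2 and GSK replicate 2, and the fold was 1.12 (log2 fold change 0.16 ± 0.049 SE, adjusted p = 0.021). Mcm5 had a fold of 1.08 and missed the threshold at an adjusted p of 0.0501, although its groups did not overlap. Mcm4 at 1.08-fold and Mcm7 at 1.05-fold were likewise higher in every GSK sample without passing (adjusted p = 0.078 and 0.19), and Mcm6 had a fold of 1.03 (adjusted p = 0.39).

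The 6 products form one ring, so their levels per length are of interest. Per kilobase of the transcript with the longest coding sequence, Mcm6 was highest in Veh at 181 ± 0.57 CPM (SD, n = 3), followed by Mcm5 at 134 ± 2.5, Mcm3 at 129 ± 4.3, Mcm7 at 115 ± 3.4, Mcm4 at 98.2 ± 1.1 and Mcm2 at 83.0 ± 2.2. Mcm5 and Mcm3 were within their spread of each other, and the order was the same in GSK. The highest level per kilobase was 2.18 times the lowest in Veh and 1.85 times in GSK. Mcm2, the MCM gene with the lowest level, was thus also the one with the largest change. A single annotated transcript length per gene was used, so levels per kilobase depend on that length and are approximate, also for genes with several isoforms.

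The remaining licensing genes did not pass. Cdc6, which helps to load the helicase, had a fold of 1.10 (adjusted p = 0.065). Cdt1, its partner in loading, had 105.1, 114.7 and 113.5 CPM in Veh and 113.7, 109.6 and 114.1 CPM in GSK, a fold of 1.01 (adjusted p = 0.81). Gmnn encodes geminin, the inhibitor of CDT1, and gave 1.07-fold with all GSK samples above Veh (adjusted p = 0.13). Per kilobase, Orc1 had the lowest level of the licensing genes, at 11.7 ± 1.2 CPM in Veh.

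**Figure D2:**
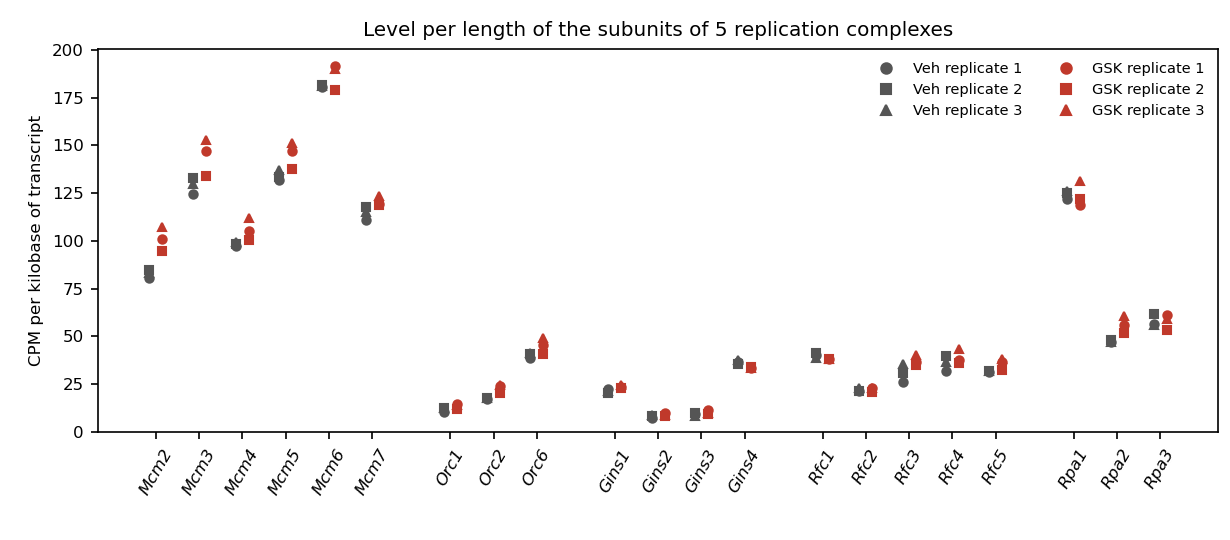
Level per kilobase of transcript, in CPM per kilobase, of the subunits of the MCM, ORC, GINS, RFC and RPA complexes, with 1 point per sample (3 Veh in grey, 3 GSK in red). Mcm6 is the highest of the MCM genes and Mcm2 the lowest in both groups, and the points of the GSK samples lie above those of the Veh samples for Mcm2.

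Of the 8 genes of origin firing and helicase activation, Mcm10 and Cdc45 rose (25%, against 16.6% of all tested genes). Mcm10, a scaffold that helps the helicase to open DNA (chromosome 2, 4990724 to 5012791), had 86.5, 90.1 and 90.3 CPM in Veh and 102.8, 95.8 and 104.0 CPM in GSK. Its groups did not overlap, at 1.13-fold (log2 fold change 0.18 ± 0.050 SE, adjusted p = 0.014). Cdc45, part of the active helicase (chromosome 16, 18780447 to 18811972), had 80.8, 83.4 and 80.1 CPM in Veh and 92.2, 88.4 and 93.6 CPM in GSK. All GSK samples were above Veh here too, with a fold of 1.12 (log2 fold change 0.17 ± 0.048 SE, adjusted p = 0.018). Cdc45 shares 3.27% of its 75-base stretches with Ufd1 on the opposite strand.

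Of the 4 GINS genes, 0 passed in edgeR and 0 in DESeq2, with 0 at an unadjusted p under 0.05. Gins1, Gins2 and Gins3 had folds of 1.11, 1.11 and 1.13 (adjusted p = 0.13, 0.26 and 0.15). Gins4 had 49.1, 48.1 and 51.0 CPM in Veh and 45.3, 46.0 and 45.4 CPM in GSK, so that every GSK sample was lower (0.922-fold, adjusted p = 0.13), and differences between the GINS genes were not tested. The activating kinase gene Cdc7 had the same ordering of samples, at 0.940-fold (adjusted p = 0.18), and Dbf4, its regulatory subunit, had a fold of 1.01 (adjusted p = 0.89). Per kilobase in Veh, Dbf4 was the highest firing gene at 53.6 ± 0.15 CPM and Gins2 the lowest at 8.24 ± 1.0 CPM. The length used for Gins2 was 3900 bases. Before division by length its Veh mean of 32.1 CPM was above those of Gins1 and Gins3, 23.3 and 23.2 CPM, and below that of Gins4, 49.4 CPM. For Gins2, 64.7% of the 75-base stretches lie over Gse1 on the opposite strand.

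The polymerase and primase genes showed the smallest shift of the role groups, with a median log2 fold change of 0.0013 over 9 genes. Of these, 11.1% rose, where 16.6% of all tested genes did. Pold2, the second subunit of polymerase delta (chromosome 11, 5872180 to 5878256), was the member that rose. It had 71.4, 82.1 and 74.5 CPM in Veh against 91.2, 82.1 and 98.1 CPM in GSK. Veh replicate 2 and GSK replicate 2 were nearly level, while the other GSK samples were higher, for a fold of 1.19 (log2 fold change 0.25 ± 0.071 SE, adjusted p = 0.017). Its catalytic partner Pold1 had a fold of 1.01 (adjusted p = 0.82), and Pold3, an accessory subunit, one of 0.921 (adjusted p = 0.13). The subunits of one polymerase therefore gave different values, although only the change of Pold2 passed and the differences between subunits were not tested.

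The catalytic subunit of polymerase epsilon, Pole, had 206.1, 197.7 and 200.5 CPM in Veh and 204.7, 206.7 and 203.3 CPM in GSK (1.02-fold, adjusted p = 0.68). Pole2, its second subunit, gave 0.966-fold (adjusted p = 0.62). Of polymerase alpha, which starts each new strand with primase, Pola1 had a fold of 1.00 (adjusted p = 0.98). Pola2 gave 1.10-fold with all GSK samples above Veh (adjusted p = 0.068). The primase subunits Prim1 and Prim2 gave 0.980 and 0.930 (adjusted p = 0.70 and 0.14), and for Prim2 every GSK sample was below every Veh sample. The levels per kilobase in Veh spanned from 22.4 ± 1.7 CPM for Pole2 to 51.4 ± 1.0 CPM for Prim1.

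Pcna, the sliding clamp that tethers polymerases to DNA, had the highest level per kilobase of all 54 members, at 320 ± 7.6 CPM in Veh. It had 475.6, 481.7 and 497.9 CPM in Veh and 520.7, 482.2 and 542.7 CPM in GSK. The groups overlapped through GSK replicate 2, and the fold was 1.06 (adjusted p = 0.16). Of the 75-base stretches of Pcna, 13.8% recur in Pcna-ps2 on the same strand. The clamp is opened by the RFC complex, of whose 5 genes Rfc5 rose. Of the 6 clamp and loader genes 16.7% thus rose, where 16.6% of all tested genes did.

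Rfc5 (chromosome 5, 117379145 to 117389023) measured 88.3, 89.0 and 88.9 CPM in Veh and 101.7, 90.7 and 106.5 CPM in GSK. The Veh samples were tightly grouped and the GSK samples were spread above them, for a fold of 1.12 (log2 fold change 0.17 ± 0.058 SE, adjusted p = 0.043). It passed in 5 of the 12 settings tried and did not pass in DESeq2 (adjusted p = 0.057). Rfc5 lies over Wsb2 on the opposite strand for 8.85% of its stretches. Rfc3 had the largest fold of the clamp genes, 1.21, but its Veh samples ranged from 34.6 to 46.9 CPM and its GSK samples from 46.4 to 52.9 CPM, and it did not pass in edgeR (adjusted p = 0.056) but passed in DESeq2 (adjusted p = 0.032) and in 4 of the 12 settings. Rfc4 and Rfc2 had folds of 1.09 and 1.02 (adjusted p = 0.34 and 0.65). The large subunit gene Rfc1 was below Veh in every GSK sample at 0.949-fold (adjusted p = 0.19). Rfc2 had the lowest level per kilobase in Veh, 21.8 ± 0.85 CPM, at a transcript length of 4995 bases. Before division by length its Veh mean of 109 CPM was above those of Rfc3, Rfc4 and Rfc5, 40.6, 46.0 and 88.7 CPM. It was below that of Rfc1, 188 CPM.

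Of the 5 genes of single-strand binding and lagging-strand processing, Rpa2 and Fen1 rose (40%, against 16.6% of all tested genes). Rpa2, the middle subunit of the single-strand binding complex (chromosome 4, 132768360 to 132778746), had 84.9, 86.8 and 85.1 CPM in Veh and 101.9, 93.7 and 110.5 CPM in GSK. The groups were apart at 1.19-fold (log2 fold change 0.25 ± 0.059 SE, adjusted p = 0.0057). Fen1, the nuclease that removes the flap of each Okazaki fragment (chromosome 19, 10199132 to 10204393), had 114.3, 118.1 and 116.0 CPM in Veh and 136.7, 126.3 and 148.9 CPM in GSK. They too did not overlap, at 1.18-fold (log2 fold change 0.24 ± 0.057 SE, adjusted p = 0.0063). Of the stretches of Fen1, 73.7% lie over the annotated gene Gm10143 on the opposite strand. Gm10143 is absent from the counts, so its level cannot be given.

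The partners of these genes differed little between groups. Rpa1, the large RPA subunit, had a fold of 0.995, Rpa3, the small one, a fold of 0.996, and Lig1, the ligase that seals Okazaki fragments, a fold of 1.02 (adjusted p = 0.92, 0.95 and 0.77). Per kilobase in Veh, Rpa1 stood highest of the 5 at 124 ± 2.2 CPM and Rpa2 lowest at 47.2 ± 0.59 CPM. The ratio of the highest to the lowest RPA subunit per kilobase was 2.63 in Veh and 2.2 in GSK.

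Rrm2, the small subunit of ribonucleotide reductase, which makes deoxynucleotides (chromosome 12, 24708254 to 24714146), was the deoxynucleotide supply gene that rose. It had 357.6, 383.9 and 366.0 CPM in Veh and 432.4, 402.9 and 481.4 CPM in GSK. The GSK samples were all higher, and widely spread, with a fold of 1.19 (log2 fold change 0.25 ± 0.059 SE, adjusted p = 0.0079). The large subunit gene Rrm1 had a fold of 1.09 (adjusted p = 0.057), with GSK replicate 2 inside the Veh range. Tyms, which makes thymidylate, had a fold of 1.10 (adjusted p = 0.13), and Tk1, the salvage thymidine kinase, one of 0.992 (adjusted p = 0.90). Of these 4 genes 25% thus rose, where 16.6% of all tested genes did. Per kilobase in Veh, Rrm2 was the highest at 168 ± 6.1 CPM and Tyms the lowest at 27.4 ± 0.68 CPM.

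E2f3 and E2f2 moved in opposite directions. Of the 7 cyclin E and E2F genes, 14.3% thus rose and 14.3% fell, where 16.6% and 15.5% of all tested genes did. E2f3, an activator of S-phase genes (chromosome 13, 29906575 to 29986064), had 44.7, 46.8 and 45.9 CPM in Veh and 58.0, 55.1 and 54.5 CPM in GSK. All 3 GSK samples were higher and close together, at 1.22-fold (log2 fold change 0.29 ± 0.056 SE, adjusted p = 0.0021). E2f2, of the same activator class (chromosome 4, 136172274 to 136196057), had 171.3, 164.9 and 173.6 CPM in Veh and 153.5, 153.4 and 149.8 CPM in GSK. Here the GSK samples were all lower, with a fold of 0.896 (95% interval 0.841 to 0.955, log2 fold change -0.16 ± 0.043 SE, adjusted p = 0.013). E2f2 no longer passed when Veh replicate 3 was left out (adjusted p = 0.060). Per kilobase in Veh, E2f2 stood at 35.9 ± 0.96 CPM and E2f3 at 8.99 ± 0.21 CPM. Both promoters printed above hold an E2F word.

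The third activator gene, E2f1, had a fold of 1.10 with overlapping groups (adjusted p = 0.19). The repressive factors E2f7 and E2f8 had folds of 1.12 and 1.08, with every GSK sample above Veh but neither passing (adjusted p = 0.067 and 0.11). Ccne1 and Ccne2 encode cyclin E, the partner of CDK2 at S-phase entry, and had folds of 1.12 and 1.03 (adjusted p = 0.16 and 0.72). Ccne1 had the highest level per kilobase of these 7 genes, 42.6 ± 3.8 CPM in Veh, and E2f7 the lowest of all 54 members, 7.43 ± 0.18 CPM.

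Of the 3 genes of histone supply and chromatin assembly, 0 passed in edgeR and 0 in DESeq2, with 1, Slbp, at an unadjusted p under 0.05. Slbp, which binds the stem loop of histone messages, had 174.9, 174.4 and 177.3 CPM in Veh and 186.6, 181.6 and 204.7 CPM in GSK. The groups were apart at 1.09-fold, short of the threshold (adjusted p = 0.076). The CAF-1 subunit genes Chaf1a and Chaf1b had folds of 1.00 and 1.06 (adjusted p = 0.93 and 0.37). For Chaf1a, 48.2% of the stretches lie over Ubxn6 on the opposite strand. Slbp had the highest level per kilobase in Veh, 92.1 ± 0.80 CPM, and Chaf1a the lowest, 23.1 ± 1.0 CPM.

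**Figure D3:**
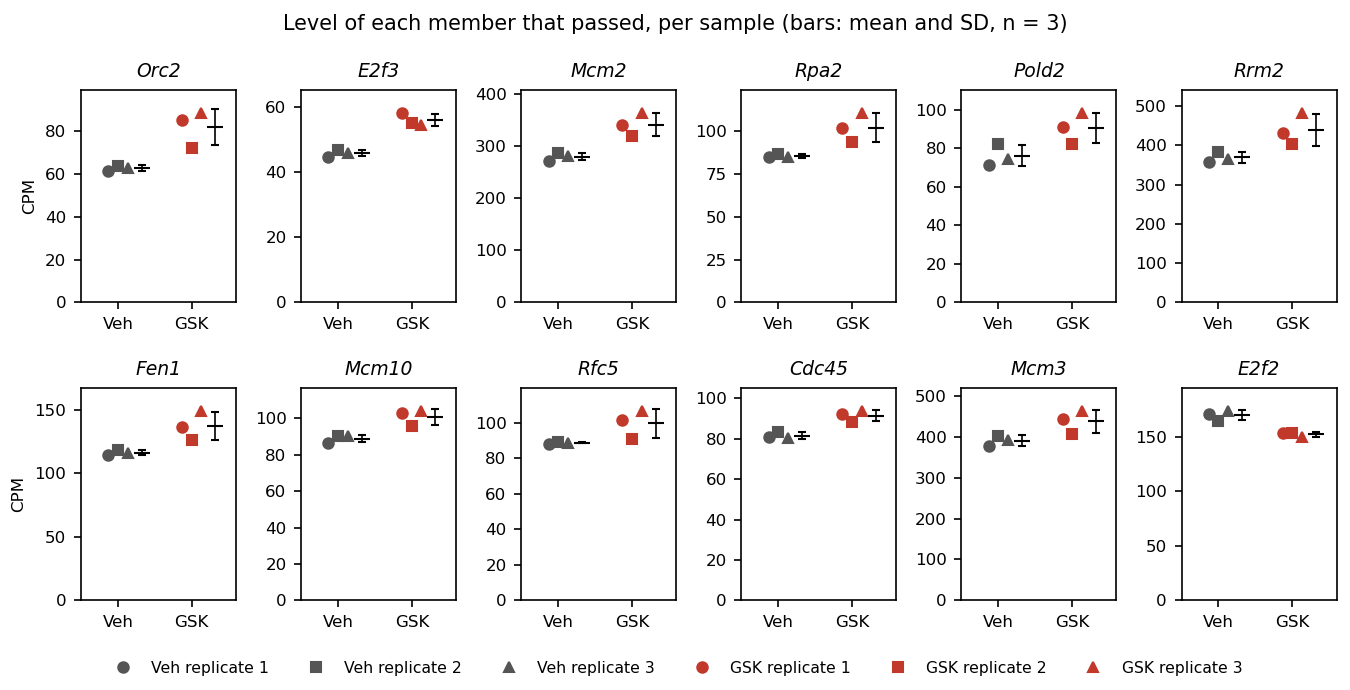
CPM per sample of the 12 members that passed an adjusted p of 0.05, with 1 panel per gene, 3 Veh samples in grey and 3 GSK samples in red, marker shapes for replicates 1 to 3 and black bars for the mean and SD. E2f2 is lower in all GSK samples, the other 11 genes are higher, and in Pold2 the replicate 2 samples of both groups are nearly level.

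The GSK samples differed among themselves in how far the machinery had shifted. Over the 54 members, the median shift in log2 CPM from the Veh mean was 0.03 in GSK replicate 2, 0.09 in replicate 1 and 0.16 in replicate 3, while the Veh samples lay between -0.03 and 0.02. GSK replicate 2 was the lowest of its group for 42 of the 54 members, where 36.6% of all tested genes had it lowest. GSK replicate 3 was the highest for 38, where 35.8% of all tested genes had it highest. Members took 0.808% of the counts of GSK replicate 2, inside the Veh range of 0.784 to 0.815%, but 0.852% and 0.885% of those of the other two. GSK replicate 2 also had the deepest library, at 19846720 counts, and the part of depth in this was not tested.

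The number of members that rose depended on the samples kept. It was 11 with all samples, 20 without GSK replicate 2, 7 without GSK replicate 3, 6 without GSK replicate 1 and 6 without Veh replicate 1. The number of all tested genes that rose moved too, at 1941, 2090, 1463, 1288 and 1377 in the same order. Orc2, Mcm2, Rpa2, Fen1, Rrm2 and E2f3 rose in all 12 settings tried, whereas Mcm3, Cdc45, Pold2 and Rfc5 each lost significance when GSK replicate 1, GSK replicate 3, Veh replicate 1 or Veh replicate 3 was removed. Rfc5 also lost it without Veh replicate 2, and Mcm10 lost it without GSK replicate 1 or Veh replicate 1. The median SD of the members' log2 CPM was 0.043 in Veh and 0.0808 in GSK, against 0.0819 and 0.0933 for all tested genes.

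**Figure D4:**
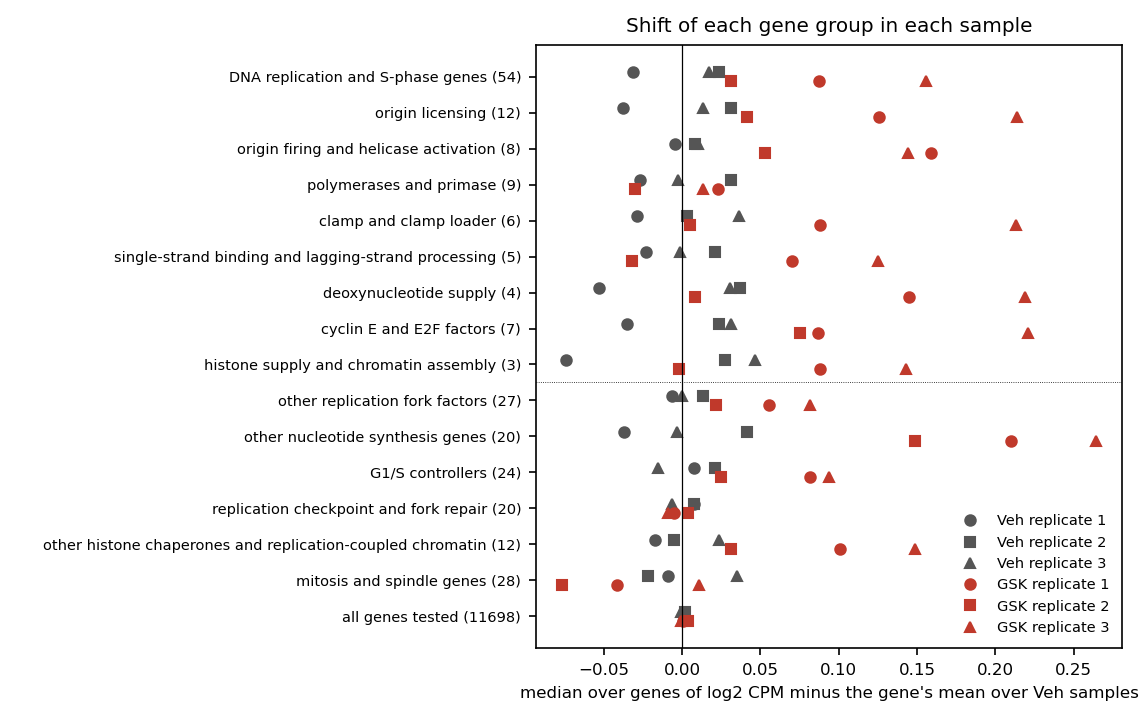
Median over the genes of each group of log2 CPM minus the gene's mean over the Veh samples, with 1 point per sample (Veh grey, GSK red) and the number of genes in brackets. Over the 54 members the GSK samples lie at 0.03, 0.09 and 0.16, GSK replicate 2 lies nearest to Veh, and the mitosis genes lie at -0.08 to 0.01 in the same samples.

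With promoters in view, 2 of the 17 members with an E2F word rose and 1 fell, with a median log2 fold change of 0.07. Of the 28 members without one, 9 rose, with a median of 0.13. Over all tested genes, 16.6% rose and 15.5% fell. The difference between the members with and without a word was not tested.

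Other genes around the replication fork gave a mixed picture. Of 27 other fork factors tested, 7 rose (25.9%) and 2 fell (7.41%), where 16.6% and 15.5% of all tested genes did, with a median log2 fold change of 0.04. Dna2, a nuclease and helicase of Okazaki fragments, rose 1.36-fold (adjusted p = 0.000135), and Top1, the topoisomerase that relieves torsion ahead of forks, rose 1.23-fold (adjusted p = 0.0012). Orc5, another ORC subunit, fell to 0.770 of its Veh level, and Pold4, the smallest polymerase delta subunit, to 0.745 (adjusted p = 0.0013 and 0.000917). Within ORC and polymerase delta there were thus subunit genes that rose, Orc2 and Pold2, and subunit genes that fell.

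Among 20 nucleotide synthesis genes that are not members, 11 rose (55% against 16.6% of all tested genes) and 2 fell (10% against 15.5%), with a median log2 fold change of 0.21. The difference from the members was not tested. Shmt1, which supplies one-carbon units for thymidylate, rose 1.66-fold (adjusted p = 0.000346). Nme1, a nucleoside diphosphate kinase, rose 1.37-fold, Ctps, the CTP synthase, 1.40-fold, and Umps, which makes UMP, 1.36-fold, all with adjusted p of 0.000657 or less. Every GSK sample exceeded every Veh sample for these 4 genes.

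Among the G1/S controllers, 7 of 24 tested rose (29.2%, against 16.6% of all tested genes) and 4 fell (16.7%, against 15.5%). Cdkn1b, the CDK inhibitor p27, fell to 0.577 of its Veh level (adjusted p = 4.25e-06), with 138.9, 131.2 and 132.7 CPM in Veh and 74.8, 86.0 and 71.6 CPM in GSK. Tfdp2, a dimer partner of E2F factors, fell to 0.650 (adjusted p = 9.32e-05). Ccnd2 and Cdk6, a D cyclin and its kinase, rose 1.33-fold and 1.30-fold (adjusted p = 2.48e-05 and 7.64e-05). No member changed as much as Cdkn1b or Tfdp2.

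Checkpoint and fork repair genes were balanced, with 2 of 20 higher (10%), 2 lower (10%) and a median log2 fold change of -0.0047. Both shares were below those of all tested genes, 16.6% higher and 15.5% lower. Exo1, a nuclease that trims DNA ends, rose 1.24-fold, whereas Atr, the kinase that senses stalled forks, and Zranb3, a fork remodeller, fell to 0.785 and 0.722. Of 12 other histone chaperones and chromatin factors at the fork, 5 rose in edgeR (41.7%, against 16.6% of all tested genes). In edgeR 0 fell, against 15.5% of all tested genes, with 0 lower at an unadjusted p under 0.05 and 0 lower in DESeq2. Those that rose included Asf1a at 1.30-fold, Asf1b at 1.21-fold, Uhrf1 at 1.15-fold and Hat1 at 1.16-fold.

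The mitosis and spindle genes, which act later in the cycle, are listed for comparison. Of 28 genes, 5 fell, or 17.9% against 15.5% of all tested genes, and 1 rose, or 3.57% against 16.6%. In 8 of them the fitted change was above 0, or 28.6% against 49.3%, and the median log2 fold change was -0.05. Cenpa, the centromeric histone, fell to 0.831 of its Veh level, Cenpf to 0.858, Cenpe to 0.883 and Mki67, the proliferation marker, to 0.887 (adjusted p = 0.0011, 0.0021, 0.0038 and 0.0077). The difference between the replication and mitosis lists was not tested.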

How the data were processed

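RNA of 3 GSK and 3 Veh cultures was sequenced by the authors from stranded poly(A) libraries, trimmed with Trimmomatic, mapped to GRCm38 with HISAT2 (version 2.1.0) and counted per gene with HTSeq (version 0.11.2), as the submitters' processing notes list. The deposited table holds raw counts of reads per gene. The table also holds GO and pathway terms. The annotation release and strand setting are not given in the sources used here, so counts of overlapping genes are uncertain.

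GSK was compared with Veh by the quasi-likelihood test in edgeR (version 4.0.16, under R 4.3.3) with robust dispersions, after TMM scaling and filterByExpr, and p-values were adjusted by Benjamini-Hochberg over 11698 genes. Total counts per sample were 18288447 to 19846720. Standard errors and 95% intervals follow from the F statistic of each gene. The alternatives were DESeq2 (version 1.42.0), RLE size factors, no filter, a filter of at least 1 CPM in 3 samples, the replicate number as a block and leaving out each sample. For promoters, a shorter window and words of 7 letters were alternatives. Transcript lengths came from the GENCODE M21 basic annotation, gene positions and promoters from RefSeq (GRCm38.p6), and shared stretches are 75-base sequences of a gene's exons found in exons of another gene.

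The members and the other gene lists were chosen with earlier results of these data known. Named genes were the 12 members with the smallest p, in each role group the member with the largest change and the highest and lowest level per length, with every member's fold given, and up to 4 genes of each other list, those past 1.5-fold first and then by p. A gene that this rule would name is not reported here.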

Additional observations from a re-analysis of the deposited data

How the results depend on the processing

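Limits are set by 3 samples per group: 1 sample moved the number of members that rose by over 1.5 times. Leaving out each sample gave 6 to 20 members higher and 0 to 1 lower, and 1288 to 2090 genes higher over all tested genes. The replicate block gave 11 higher and 1 lower, as did DESeq2, both with Rfc3 in place of Rfc5 (adjusted p = 0.021 and 0.062 with the block). The replicate numbers were not taken as pairs: over all tested genes, GSK and Veh samples that share a number correlated at -0.052, -0.081 and 0.16 once each group's mean was taken out, and 2 of 6 samples correlated best with their own number. RLE size factors and the CPM filter gave 11 and no filter 14. No alternative gave a member past 1.5-fold. The median log2 fold change of the members stayed between 0.064 and 0.15. The share of promoters with an E2F word was 22.2% in the shorter window and 64.4% with words of 7 letters, against 19.7% and 10.9% of tested and all genes for the latter.

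Members near 0 changed sign when a sample was left out, none of them passing the test. The lowest and highest log2 fold changes were -0.020 and 0.041 for Cdt1, -0.024 and 0.024 for Dbf4, -0.018 and 0.016 for Pola1 (-0.0027 with the CPM filter), -0.065 and 0.0081 for Prim1, -0.022 and 0.062 for Pold1, -0.053 and 0.021 for Rpa1, -0.047 and 0.049 for Rpa3, -0.032 and 0.073 for Lig1, -0.061 and 0.023 for Tk1, -0.018 and 0.13 for Ccne2, and -0.029 and 0.040 for Chaf1a. The cause was not tested.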

Other observations

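Genes of the replication-dependent histone clusters, whose messages mostly end in a stem loop and not in a poly(A) tail, were looked at after their values were seen. The table holds 58 of them, of which 21 passed the filter on low counts. Their median level was 0.313 CPM in Veh and the highest, H4c9, had 7.79 CPM, so that poly(A) libraries do not measure histone supply here. Summed over the 58 genes, the levels were 36.7, 38.8 and 40.0 CPM in Veh and 46.0, 42.0 and 45.9 CPM in GSK.

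Of 35 tested genes with the deposited pathway term DNA replication, 9 were not among the members, and of these 4 rose and 1 fell, with a median log2 fold change of 0.18. Of 97 other tested genes with the term Cell cycle, 17 rose and 13 fell, with a median of 0.0088. For both terms the background is 16.6% of all tested genes that rose and 15.5% that fell, and the Cell cycle counts were near it.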
